A study of Mus musculus with 8 samples.

Results

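The CC chemokines described here are 8 small secreted proteins of the mouse, encoded by Ccl2, Ccl3, Ccl4, Ccl5, Ccl7, Ccl8, Ccl11 and Ccl12. They were chosen by gene symbol, as all probe sets annotated to one of these symbols alone. All 8 were on the array with 1 probe set each, among 18194 named genes. RNA was measured on 8 Affymetrix arrays, each from the microvessels of a separate newborn brain at postnatal day 1. The 4 mutant brains carried the D849V knock-in allele of Pdgfrb, a constitutively active form of the receptor for platelet-derived growth factor that pericytes express. The 4 control brains were wild type, and all mice had a mixed 129S/J background. Vessel fragments with attached pericytes were taken out of dissociated brain on beads coated with anti-PECAM. Whether the knock-in allele was carried on 1 or both chromosomes is not given in the sources used here.

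CC chemokines bind G protein-coupled receptors on leukocytes and draw these cells towards the source. Ccl2, Ccl7, Ccl8, Ccl11 and Ccl12 make up the monocyte chemoattractant branch of the family, and Ccl3, Ccl4 and Ccl5 belong to the macrophage inflammatory branch. In the brain, microglia, perivascular macrophages, endothelial cells and mural cells can all produce members, and the main receptors sit on monocytes, macrophages, T cells and granulocytes. Each branch lies in a cluster of its own on mouse chromosome 11.

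Promoter windows were held by the RefSeq table (GRCm38.p6) for 3 of the 8 genes, and they are shown because these genes come from both clusters. Each window runs from 250 bases before to 50 bases after the start of transcription, 5′ to 3′ on the gene's strand, and capitals mark TATAAA. The window of Ccl12 is chr11:82101595-82101894 on the plus strand, that of Ccl8 is chr11:82114935-82115234 on the plus strand, and that of Ccl3 is chr11:83649329-83649628 on the minus strand.
Ccl12: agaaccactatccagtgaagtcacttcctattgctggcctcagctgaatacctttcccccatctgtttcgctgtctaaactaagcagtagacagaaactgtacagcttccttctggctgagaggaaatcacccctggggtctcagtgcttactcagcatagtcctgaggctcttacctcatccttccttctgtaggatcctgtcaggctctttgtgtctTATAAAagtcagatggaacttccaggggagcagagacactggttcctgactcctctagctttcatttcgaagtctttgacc
Ccl8: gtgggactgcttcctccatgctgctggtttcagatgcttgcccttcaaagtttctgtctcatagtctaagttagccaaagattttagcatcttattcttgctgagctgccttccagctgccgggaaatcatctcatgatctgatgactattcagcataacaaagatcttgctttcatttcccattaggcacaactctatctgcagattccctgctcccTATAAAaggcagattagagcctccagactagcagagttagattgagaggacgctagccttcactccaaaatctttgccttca
Ccl3: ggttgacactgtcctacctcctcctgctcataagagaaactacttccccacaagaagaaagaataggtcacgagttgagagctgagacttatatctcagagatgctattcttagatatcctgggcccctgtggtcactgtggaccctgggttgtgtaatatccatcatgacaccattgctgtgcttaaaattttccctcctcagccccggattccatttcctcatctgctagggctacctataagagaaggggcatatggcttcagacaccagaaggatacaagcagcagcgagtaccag

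The windows of the cluster neighbours Ccl12 and Ccl8 were 58% identical in a global alignment, against 50% for Ccl12 with Ccl3 and 50.9% for Ccl8 with Ccl3. TATAAA lay at -31 to -26 in Ccl12 and at -32 to -27 in Ccl8, counted from the start of transcription, and 13.6% of 32851 windows held it on either strand. Searched on both strands, the core of the interferon-stimulated response element had no match in the 3 windows, and 3.44% of all windows held it. The gamma-activated site TTCNNNGAA (8.3% of all windows), the AP-1 site TGANTCA (7.81%) and the kappaB consensus (8.46%) had no match in them either. These searches describe the letters of 300 bases and nothing further upstream.

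Every member had a higher mean in the mutant microvessels. Ccl5, a chemoattractant of T cells, and Ccl12, a mouse ligand of the monocyte receptor Ccr2, had the largest changes among those tested. On the group means Ccl12 was 13.6-fold higher and Ccl5 at least 8.94-fold higher. Ccl2, Ccl3 and Ccl7 rose by 4.55-fold, 3.79-fold and 2.88-fold. Ccl4 and Ccl8 were also higher on every mutant array but did not pass the tests of all 8 arrays given in their paragraphs below. For Ccl8 both mutant array 4 (3.01) and the highest control array (2.72) lay under the filter, so that gap is not resolved. Ccl11 stayed near the bottom of the scale in both groups. Of the 6 members bright enough to test, 5 rose and none fell at a limma p adjusted by Benjamini-Hochberg over 11446 genes; Ccl5 entered the test through the mutant arrays alone. Among all 11446 genes, 2.66% rose and 1.92% fell at the same adjusted threshold of 0.05. A gene entered the test when at least 4 arrays lay above a log2 value of 4, a level chosen to leave out the crowded bottom of the scale at 2.18. All values below are log2 expression values, so that a step of 1 is a 2-fold change. The tissue is a mixture, so a change in the number of cells of a type and a change in RNA per cell cannot be told apart.

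**Figure D1:**
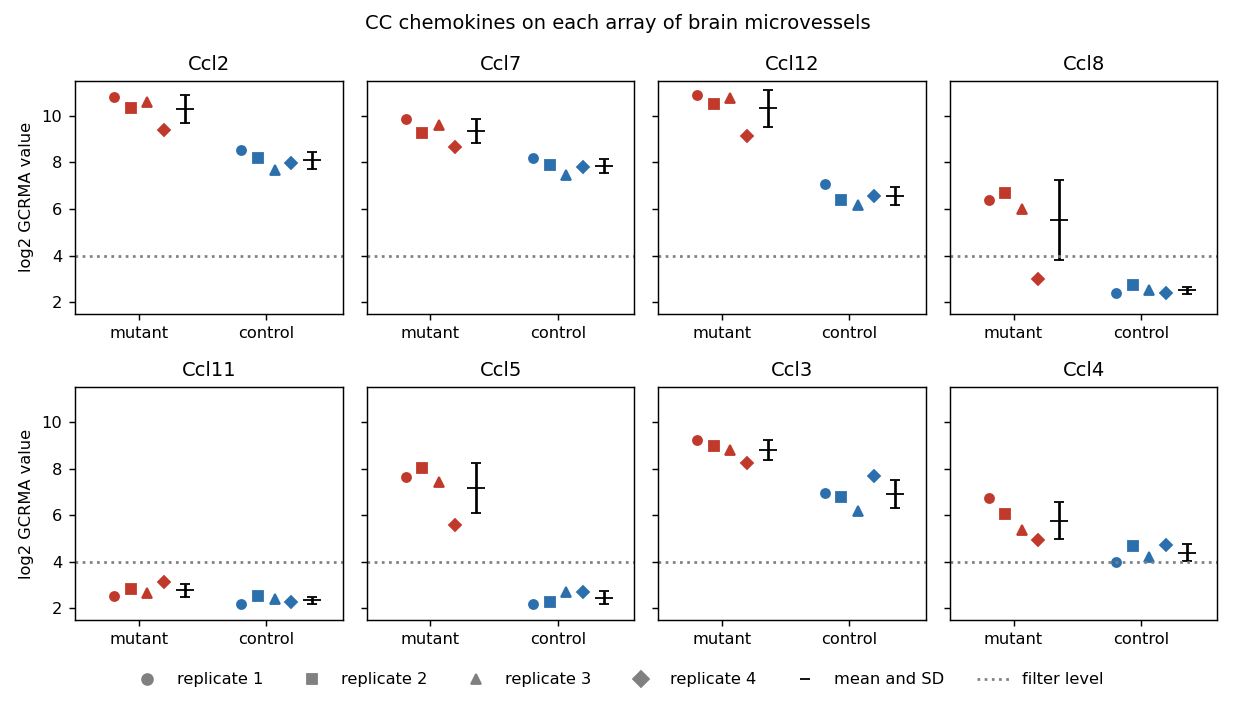
Log2 expression value of each CC chemokine on each of the 8 arrays, mutant left and control right, with 1 symbol per replicate number, the group mean and SD, and the filter level of 4 as a dotted line. For Ccl12 the 4 mutant arrays sit between 9.13 and 10.89, all above the control arrays, and replicate 4 is the lowest mutant array in every panel but that of Ccl11.

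The arrays of each group were alike over all tested genes, with Pearson correlations of 0.967 to 0.991 within groups and 0.932 to 0.968 between them. Mutant array 4 correlated with the other mutant arrays at 0.967 to 0.984, against 0.971 to 0.989 among those. For the chemokines, 7 of the 8 had their lowest mutant value there, Ccl11 being the exception. The same array was lowest among the mutants for 22.5% of all tested genes and for 70.7% of the 304 genes that rose, so this is not particular to the chemokines. The members other than Ccl11 are therefore given with and without mutant array 4, and other genes where it alters a call. All p-values measure the spread between these 8 brains. Over the 11446 tested genes the differences had a median of -0.11. Pdgfrb itself fell by 1.01 (SE 0.115, limma adjusted p = 0.00132), which does not check the labels, since a substitution need not alter transcript level.

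Ccl2, the principal attractant of inflammatory monocytes, read 10.80, 10.33, 10.58 and 9.42 on the mutant arrays, against 8.55, 8.18, 7.69 and 7.98 on the control arrays. The groups did not overlap, and the lowest mutant array was 0.87 above the highest control array. The difference was 2.19 (SE 0.307, limma adjusted p = 0.00472), a 4.55-fold rise with a 95% confidence interval of 2.79-fold to 7.41-fold. Without mutant array 4 it was 2.47 (SE 0.213, limma adjusted p = 0.000539).

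Ccl12 lies in the same cluster and, like Ccl2, encodes a ligand of Ccr2. It read 10.89, 10.52, 10.75 and 9.13 in mutants, against 7.08, 6.39, 6.19 and 6.57 in controls, so that the gap between the groups was 2.05. Its difference was 3.77 (SE 0.385, limma adjusted p = 0.000655), and the interval of its fold ran from 7.40 to 25.1. Without mutant array 4, which was 1.59 below the mean of the other mutant arrays, the difference was 4.17 (limma adjusted p = 2.94e-05).

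Ccl7, a monocyte attractant with a wider range of receptors, read 9.89, 9.27, 9.60 and 8.67 in mutants, against 8.18, 7.89, 7.46 and 7.79 in controls. The groups were separate by 0.49, less than the spread of 1.21 among the mutant arrays themselves. Its difference was 1.53 (SE 0.262, limma adjusted p = 0.0142), and 1.76 without mutant array 4 (limma adjusted p = 0.00283). That call was lost without mutant array 3 (limma adjusted p = 0.0519), without control array 4 (limma adjusted p = 0.0516) and with no filter (limma adjusted p = 0.0612).

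Ccl8 lies next to Ccl12 and in mice attracts cells through the receptor Ccr8. It read 6.39, 6.70, 6.01 and 3.01 in mutants, against 2.37, 2.72, 2.50 and 2.40 in controls. It was plainly measured on mutant arrays 1 to 3 and lay under the filter on mutant array 4 and on every control array, so it did not enter the main test. With the control level set to the filter, the mutant mean of 5.52 ± 1.70 (SD, n = 4) stood 2.88-fold above it. That figure allows for the floor in controls and not for the spread between brains. When 3 arrays above the level sufficed, a setting added after seeing the data under which 2.69% of genes rose, its difference of 3.03 missed the threshold (SE 0.729, limma adjusted p = 0.0586). Under that setting without mutant array 4 the difference was 3.87 (SE 0.174). No p is given for it, because Ccl8 met that setting only through mutant arrays 1 to 3, the mutant arrays left in. The size of either difference is not resolved, because the control values lie near the floor.

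Ccl11, the eotaxin that attracts eosinophils, was the only member under the filter on all 8 arrays. It read 2.50, 2.82, 2.64 and 3.14 in mutants, against 2.18, 2.50, 2.38 and 2.28 in controls, the lowest mutant value equalling the highest control value. Its mutant values are highest on array 4, unlike those of the other members. No fold is given, because both groups lie where the scale does not resolve levels (exact permutation p = 0.0571, two-sided).

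Ccl5, which attracts T cells and macrophages, read 7.64, 8.01, 7.41 and 5.57 in mutants, against 2.18, 2.26, 2.69 and 2.69 in controls. It was therefore under the filter on all control arrays and entered the test through the mutant arrays alone. The fitted difference was 4.70 (SE 0.480, limma adjusted p = 0.000651), and it was 5.23 without mutant array 4 (limma adjusted p = 7.15e-06). Since the control values lie at the bottom of the scale, the rise of the mean is bounded as at least 8.94-fold, with the controls set to the filter level. This bound allows for the floor and not for the spread between brains. Mutant array 4 was 2.12 below the mean of the other mutant arrays and still 2.88 above the highest control array.

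Ccl3, a ligand of Ccr1 made by activated macrophages and microglia, read 9.25, 8.98, 8.82 and 8.23 in mutants, against 6.95, 6.78, 6.19 and 7.67 in controls. Control array 4 was the highest control and came within 0.56 of the lowest mutant array. The difference was 1.92 (SE 0.323, limma adjusted p = 0.0127), a rise of 3.79-fold with an interval of 2.27-fold to 6.32-fold. Without mutant array 4 it was 2.12 (limma adjusted p = 0.0109), and with no filter the call was lost (limma adjusted p = 0.0594).

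Ccl4, the close relative of Ccl3 next to it on the chromosome, read 6.75, 6.03, 5.35 and 4.94 in mutants, against 3.98, 4.69, 4.18 and 4.70 in controls. The groups did not overlap, but the gap was 0.23 while the mutant arrays spanned 1.82. Its difference of 1.38 did not pass (SE 0.378, limma adjusted p = 0.0874), with an interval of 0.51 to 2.24. Without mutant array 4 it was 1.66 (limma adjusted p = 0.0391), and all 6 tested members then passed, against 2.99% of all genes rising and 2.32% falling in that fit.

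In all, every mutant array exceeded every control array for 7 of the 8 members, against 2.76% of the 18194 named genes and 4.07% of the 11446 tested ones. For Ccl8 the separation rests on values under the filter, 3.01 on mutant array 4 against at most 2.72 in controls. For the tested members other than Ccl5, taken singly, that separation gives an exact permutation p of 0.0286 (two-sided). It is the smallest that 70 assignments of the arrays allow. Ccl5 passed the filter through the mutant arrays alone, which fixed its separation in advance, so no p is given for it here. With no filter on low values, 3 of the 8 rose (Ccl2, Ccl5 and Ccl12), and 1.31% of the 18194 genes did.

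For each of the 15 pairs of tested members, the log2 difference between the members was taken on every array and compared between the groups by an exact permutation test. Ccl12 had a larger change than Ccl2, by 1.58: the value of Ccl12 minus that of Ccl2 ran from -0.29 to 0.18 on the mutant arrays and from -1.79 to -1.41 on the control arrays. Its change also exceeded that of Ccl3 by 1.85, that of Ccl7 by 2.24 and that of Ccl4 by 2.39. Ccl2 had a larger change than its neighbour Ccl7, by 0.66. The value of Ccl2 minus that of Ccl7 lay between 0.74 and 1.06 in mutants, against 0.19 and 0.37 in controls, the tightest within-group spread of any pair (SD 0.135 in mutants and 0.078 in controls, n = 4 each).

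These 5 pairs each had an exact permutation p of 0.0286, two-sided, the smallest possible, and 0.0476 after Benjamini-Hochberg adjustment over the 15 pairs. That adjusted value rests on 4 further pairs, of Ccl5 with Ccl2, Ccl3, Ccl7 and Ccl4, whose size is not known because Ccl5 was at the bottom of the scale in controls. With values under the filter set to its level, a setting added after seeing the data, no pair passed (smallest adjusted p = 0.0612 by the exact permutation test). The groups then overlapped for Ccl5 with Ccl2 and with Ccl3, and the change of Ccl5 minus that of Ccl12 was -0.61 in place of 0.94, so the order of these 2 members is not resolved. Without mutant array 3 no pair passed either (smallest adjusted p = 0.0536 by the exact permutation test). Among Ccl2, Ccl3 and Ccl4, and between each of Ccl3 and Ccl4 and Ccl7, the changes differed by 0.15 to 0.81 without passing.

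**Figure D2:**
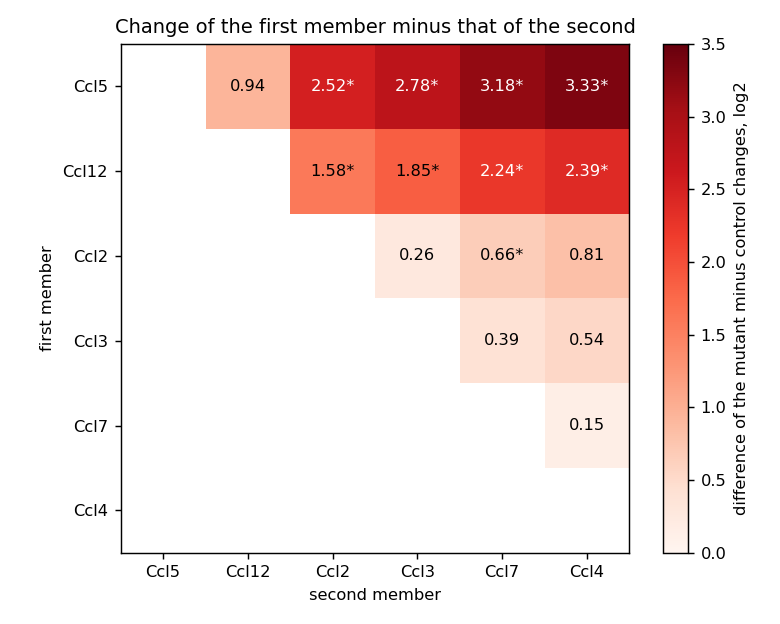
Difference between the mutant minus control changes of each pair of tested members on the log2 scale, row member minus column member, with stars at an adjusted exact permutation p under the threshold. The rows of Ccl5 and Ccl12 hold 8 of the 9 starred pairs and the remaining one is Ccl2 against Ccl7; those of Ccl5 rest on control values at the bottom of the scale, and no pair is starred once values under the filter are set to its level.

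No tested gene beside either cluster on chromosome 11 passed, other than chemokines. In the first cluster the order of genes with a probe set was Ccl2, Ccl7, Ccl11, Ccl12 and Ccl8, with Ccl1 next. Of the 10 nearest genes, 5 on each side, 2 were bright enough to test and neither passed: Zfp830 differed by -0.03 and Lig3, a DNA ligase, by -0.30. The second cluster ran from Ccl5 over Ccl9, E230016K23Rik and Ccl6 to Ccl3 and Ccl4. Of the 13 other genes within or beside it, 7 were tested, and the risen ones were the chemokines Ccl9 and Ccl6. The flanking genes that were tested, Ap2b1, Rasl10b, Taf15, Heatr6 and Ddx52, differed by -0.56 to 0.12 with limma adjusted p from 0.279 to 0.900.

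Among the other CC chemokines, 10 of 13 had a probe set of a single symbol, 4 were tested, 2 rose and none fell. Ccl9, a macrophage attractant of rodents, read 7.98, 7.27, 7.57 and 6.13 in mutants, against 5.50, 4.79, 4.38 and 5.56 in controls. It rose by 2.18 (SE 0.420, limma adjusted p = 0.0241). Ccl6, its neighbour, rose by 1.38 (SE 0.306, limma adjusted p = 0.044), and mutant array 4 was the lowest mutant array for both. Ccl25 and Ccl27a, chemokines of gut and skin homing, differed by 0.14 and 0.13. Ccl1, Ccl17, Ccl20, Ccl22 and Ccl24 lay at the floor on every array, within 0.5 of the lowest value in the table, and Ccl28 was under the filter.

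Of 14 CC chemokine receptors and scavenging receptors measured, 6 were tested, of which 2 rose and none fell. Ccr1, a receptor of Ccl3, Ccl5 and Ccl7 on myeloid cells, read 7.55, 7.18, 7.48 and 5.98 in mutants, against 5.22, 4.62, 4.62 and 5.13 in controls. It rose by 2.15 (SE 0.344, limma adjusted p = 0.00959), with mutant array 4 again the lowest of its group. A dimmer probe set of Ccr1, under the filter on every array, differed by 0.87. Ccrl2, an atypical receptor that does not signal as a classical chemokine receptor, rose by 1.12 (SE 0.231, limma adjusted p = 0.0317). It read 6.43 to 6.84 in mutants, against 5.25 to 6.29 in controls.

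Ccr2, the receptor of Ccl2, Ccl7 and Ccl12 on monocytes, lay at the floor on all 8 arrays, with a highest value of 2.67. Ccr1l1, Ccr3, Ccr4, Ccr6, Ccr7, Ccr8 and Ccr10 were at the floor as well. The scavenging receptors, which take up chemokines without drawing cells, did not pass: Ackr2 differed by -0.08, Ackr1, the receptor of venular endothelium and red cells, by -0.26 and Ackr4 by -0.27. The second bright probe set of Ackr4 read 7.75 to 7.89 in mutants, against 7.93 to 8.41 in controls. Ccr9 differed by 0.48 on its brightest probe set and by -0.43 on another. Of 13 tested signalling genes downstream of such receptors, out of 18 measured, only the arrestin gene Arrb2 rose, by 0.52 (SE 0.117, limma adjusted p = 0.0473), and none fell.

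**Figure D3:**
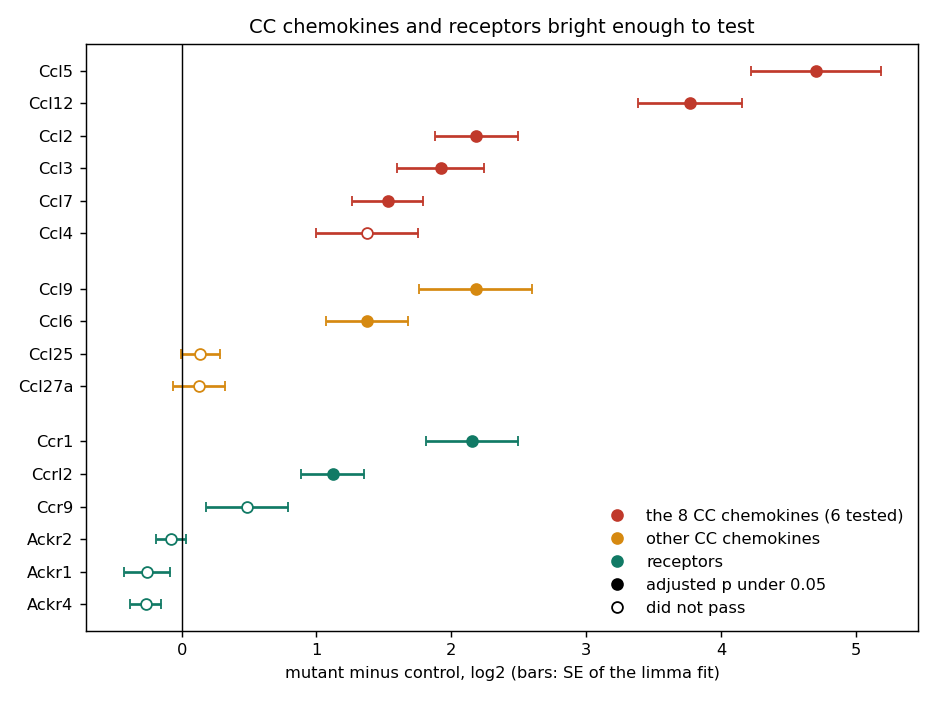
Mutant minus control difference on the log2 scale, with the SE of the limma fit, for the 6 tested members, 4 other CC chemokines and 6 receptors. Filled points passed the adjusted threshold; Ccl5, Ccl12, Ccl2, Ccl3 and Ccl7 lie right of 1.5, and the scavenging receptors lie left of 0.

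Cell type markers were read on the same arrays. Of 15 tested microglia markers, out of 19 measured, 10 rose and none fell, with a median difference of 2.04. The mean level of that list was 8.63 to 9.46 on the mutant arrays, against 6.91 to 7.87 on the control arrays, and the lowest mutant array was array 4, as for 7 of the chemokines. Ctss, C1qa, Fcer1g and Aif1, which encode a lysosomal protease, a complement chain, an Fc receptor chain and a calcium-binding protein, rose by 2.18 to 3.31. Of the tested markers that did not pass, P2ry12 differed by 2.04 (limma adjusted p = 0.133) and Gpr34 by 2.12 (limma adjusted p = 0.0651). Sall1 differed by 0.11 (limma adjusted p = 0.783) and Laptm5 by 0.34 (limma adjusted p = 0.139). The identity genes Tmem119 and Siglech were under the filter on every array, Trem2 was too dim to test, with a highest value of 4.29, and Itgam was at the floor. Of 10 perivascular macrophage markers, all tested, 5 rose and none fell, with a list level of 7.92 to 8.77 in mutants, against 7.07 to 7.70 in controls. Mrc1 differed by 0.68 (limma adjusted p = 0.207) and Cd163 by 0.93 (limma adjusted p = 0.189), without passing. Cbr2 and Stab1 went the other way, by -0.93 and -0.20, and did not pass either. Without mutant array 4, P2ry13 of the microglia list (1.17, limma adjusted p = 0.00774) and F13a1 of the macrophage list (1.30, limma adjusted p = 0.0415) passed as well. The part of these cells in the chemokine values was not tested.

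Above the control mean, the microglia list stood at 2.07, 1.75 and 1.88 on mutant arrays 1 to 3 and at 1.25 on mutant array 4. Ccl2 stood at 2.71, 2.24, 2.48 and 1.32 and Ccl3 at 2.35, 2.08, 1.92 and 1.33 on the same scale. Ccl5 stood at 5.19, 5.56, 4.96 and 3.12, and Ccl8 at 3.89, 4.20, 3.51 and 0.51.

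**Figure D4:**
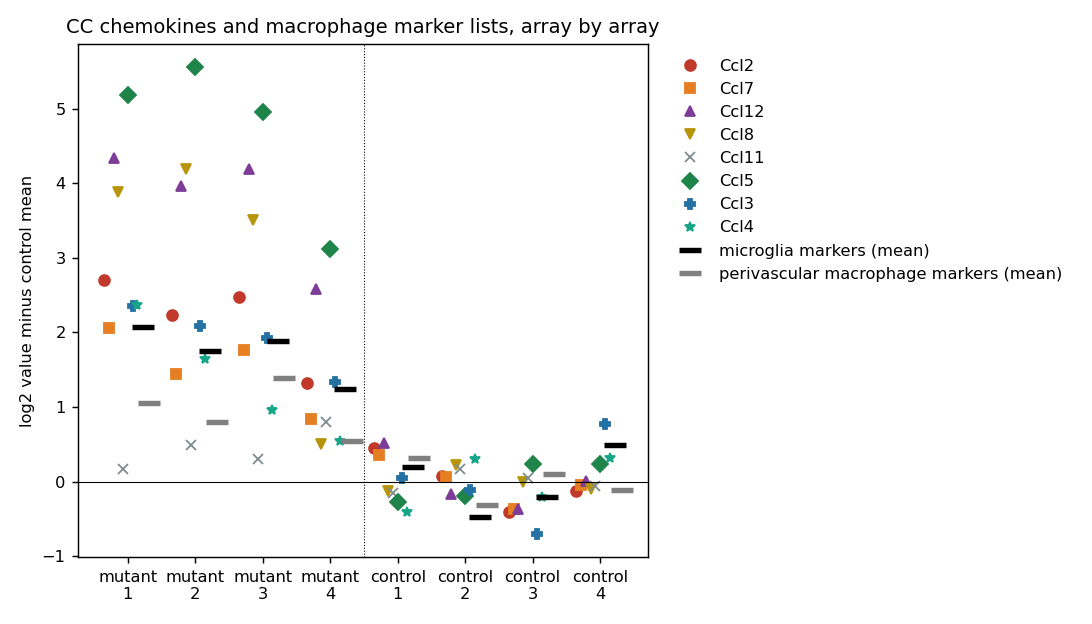
Log2 value minus the control mean on each array for the 8 CC chemokines (symbols) and for the mean of the tested microglia and perivascular macrophage markers (bars). On mutant arrays 1 to 3 Ccl5 and Ccl12 stand at 3.96 to 5.56, and on mutant array 4 every member but Ccl11 is at its lowest mutant level.

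Markers of blood leukocytes were mostly dim. Of 10 measured monocyte markers, 5 were tested, and Plac8 (5.74, limma adjusted p = 1.11e-06) and Lyz2 (2.02, limma adjusted p = 0.0103) rose, while Ccr2, Chil3 and F10 lay at the floor. None of 5 tested neutrophil markers passed, the brightest being Mmp9 (0.24) and S100a8 (0.32), and Camp, Mmp8, Cxcr2, Elane and Mpo were at the floor. None of 15 measured T and NK cell markers lay above the filter on enough arrays to be tested, and 8 of them, Cd3e, Cd3d, Cd3g and Ncr1 among them, were at the floor on all arrays. Some of the others had a higher mean in mutants. The granule protease Gzma had a mutant mean of 6.89 ± 2.90 and a control mean of 2.32 ± 0.15 (SD, 4 arrays per group). Gzmb reached 4.82 in mutants, against at most 2.20 in controls. Klrd1 and Nkg7 reached 3.73 and 3.62 in mutants, against 2.19 and 2.20 in controls. Cd247 went the other way, with a mean of 3.13 in mutants and 3.45 in controls. Klrd1, Nkg7 and Cd247 lay under the filter on every array, where levels are not resolved. Among the 3 tested mast cell and eosinophil markers none passed, Kit differing by -0.54 and the mast cell protease Cpa3 by 2.06. The 2 tested B cell markers, Ighm (1.48) and Cd79b (0.52), did not pass with all arrays, but Ighm did without mutant array 4 (1.97, limma adjusted p = 0.0155). Their mean level was also lowest among the mutants on array 4, at 4.92 against 6.03 to 6.79 on the other mutant arrays. The part of these leukocytes in the chemokine values was not tested.

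Endothelial markers were bright in both groups, and so were the pericyte markers other than Anpep and Ndufa4l2, which lay near the filter. Of 12 endothelial markers, Erg fell by 0.63 and none rose, with a list level of 11.28 to 11.79 in mutants, against 11.66 to 12.03 in controls. The lowest endothelial level was that of mutant array 4, at -0.52 from the control mean, against -0.02, -0.08 and -0.05 on the other mutant arrays. Of 12 pericyte markers, Higd1b rose by 0.85 and Pdgfrb fell, the call of Higd1b being lost without mutant array 4 (limma adjusted p = 0.071), with a list level of 9.92 to 10.32 in mutants, against 9.95 to 10.36 in controls. Of 9 tested fibroblast markers Twist1 rose by 0.46 and none fell, and none of 8 astrocyte markers passed, Fabp7 differing by 0.13 and Gja1 by -0.09.

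For each risen member, the tested genes with the most similar values over the 8 arrays were found, as the root mean square distance after each gene was centred on its control mean. Nearest to Ccl12 were Fcgr1, an Fc receptor gene, at 0.127, AW112010 at 0.21 and Mlkl, the effector of necroptosis, at 0.343. Nearest to Ccl2 were the Fc receptor gene Fcgr2b at 0.171, Ccr1 at 0.211 and the lysozyme gene Lyz2 at 0.22. Nearest to Ccl7 were Pld4 at 0.144, Ncf1, a subunit of the phagocyte oxidase, at 0.23 and Gsdmd, the pore-forming gasdermin, at 0.233.

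Ccl3 lay nearest to the Fc receptor gene Fcgr3, at 0.25, then to Cd53, at 0.25, and to the adaptor gene Tyrobp, at 0.3. Ccl5 lay nearest to Ms4a4c at 0.422, to the interferon-induced synthetase gene Oas2 at 0.439 and to Sp100 at 0.536. All 15 of these neighbours had themselves risen in the limma test, with differences from 1.30 to 5.12. The distance was measured over 8 arrays that also gave the calls, and it carries no test.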

How the data were processed

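The members and gene lists were chosen with earlier results of these data known. The authors deposited log2 expression values per probe set, made with GCRMA, per the submitters' processing notes; its version is not stated there. GCRMA models background from probe sequence and normalizes by quantiles, so dim probe sets crowd at a floor (2.18) and their folds are understated. The values, 2.18 to 16.49, fit a log2 scale. Per the labels' protocols, biotin-labelled cRNA came from 6 ug of total RNA. Arrays carry no depth; their number, 4 per group, limits the precision.

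Of 45101 probe sets, 34958 had 1 symbol, 932 several and 9211 none. The brightest probe set stood for a gene, and genes above 4 on at least 4 arrays were tested (11446 of 18194) by a two-sided moderated test (limma 3.58.1, R 4.3.3) with Benjamini-Hochberg adjustment at 0.05. Where an array was left out, the same genes were tested. The fit and the permutation test were tested on simulated data. Names came from the platform annotation, and gene order and promoters from RefSeq (GRCm38.p6). Named genes were the members; from each list those that passed, at most 4 with the smallest p, or the 2 brightest where none did; the measured receptors; the 3 genes most like each risen member; and cluster neighbours. Other genes were named after their values were seen. The labels name no litter, preparation day or scan, and no batch could be tested. Alternatives were no filter, a filter at 6, other choices of probe set, a second quantile normalization, median centring, the replicate block, array weights, trend and robust moderation, a Y-linked covariate, leaving out each array, calling only at 0.01 and calling only changes of 2-fold or more.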

Additional observations from a re-analysis of the deposited data

How the results depend on the processing

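No member changed direction under any of the 21 planned settings in which it was tested. Several of these settings could not change a direction. Each member had 1 probe set, and the filters, thresholds, replicate block and trend and robust moderation left the difference as it was. Ccl2 and Ccl12 passed in all 21, Ccl5 in all 20 that tested it, Ccl3 in 18 and Ccl7 in 17 of 21, and Ccl4 in 2 of 20 (array weights, limma adjusted p = 0.0204, and without mutant array 4). Of the members, 3 rose with no filter and 3 at a threshold of 0.01, and 4 to 6 with single arrays left out. The number of changed genes over the whole table was 524 (304 higher, 220 lower) and 3158 with array weights (895 higher, 2263 lower), 246 at a threshold of 0.01 (37 lower) and 241 at a fold of at least 2 (17 lower). It ran from 303 to 608 with single arrays left out, with 62 to 266 lower. The genes that fell numbered 135 with no filter and 142 with the Y-linked covariate. A second quantile normalization gave 326 higher and 162 lower. No cause of these shifts was tested.

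With the replicate number as a block, 259 genes changed (38 lower), 4 members rose, and Ccl3 lost its call (limma adjusted p = 0.076). Same-numbered arrays correlated at -0.08, -0.48, -0.20 and 0.30 in their deviations from the group means, and 1 of 8 arrays matched its own number best. With so few arrays and no litter, day or scan in the labels, this cannot decide whether the numbers pair the brains. Under the block 0 of 15 pairs of members passed, since 16 sign flips allow no p below 0.125. With single arrays left out 0 to 10 pairs passed, 0 of them without mutant array 3. With values under the filter set to its level, 0 pairs passed. Values near the floor, those of Ccl5 and Ccl8 in controls and of Ccl11 in both groups, are not resolved.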

Other observations

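Gzma, a cytotoxic granule protease of NK and T cells, read 8.92, 8.0, 8.07 and 2.58 on the mutant arrays, against 2.30, 2.22, 2.22 and 2.53 on the control arrays. It was the brightest of the T and NK cell markers, and like Ccl8 it was bright on mutant arrays 1 to 3 and close to the controls on array 4. It was above the filter on too few arrays to be tested. Rac2, a GTPase of haematopoietic cells that acts in chemotaxis, followed the same order, at 5.25, 5.12, 5.22 and 3.49 in mutants, against 3.38, 2.77, 2.44 and 3.10 in controls. The mast cell protease gene Cma1 did not: it read 7.48, 9.46, 9.51 and 8.03 in mutants, against 5.58, 7.69, 3.81 and 4.71 in controls, with overlapping groups. These genes were looked at singly after their values were seen.

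Probe sets annotated to several CC chemokine genes were kept out of the comparisons. The one that lists Ccl19 among 10 symbols read 7.18, 6.79, 6.42 and 5.94 in mutants, against 5.39, 5.30, 5.15 and 5.94 in controls (exact permutation p = 0.0571, two-sided). The one that lists the Ccl21 genes had a mutant mean of 7.60 ± 0.47 against a control mean of 7.48 ± 0.53 (SD, 4 arrays per group), which differ by 0.12.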
